A study of Mus musculus with 8 samples.

Results

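Fatty acids and the carbon skeletons of the branched-chain amino acids are burned in mitochondria as acyl-CoA esters, and a smaller share of them, mainly very long and branched chains, is first shortened in peroxisomes. Each round of β-oxidation opens with an acyl-CoA dehydrogenase chosen by chain length, goes on with hydration and a 3-hydroxyacyl-CoA dehydrogenase, and ends with a thiolase that releases acetyl-CoA. The dehydrogenases pass their electrons through the flavoprotein ETF to the respiratory chain, so this pathway feeds the same chain as the citric acid cycle does. The genes described here are 10 of the 23432 gene symbols listed in each library: the acyl-CoA dehydrogenases Acads, Acadm, Acadl, Acadvl, Acadsb and Acad11, the hydroxyacyl-CoA dehydrogenase Hadh, the thiolases Acaa2 and Acat1, and Scp2, the peroxisomal sterol carrier and thiolase. They were picked by name with results of these data already known, and the record does not say which values picked them. Their differences below, and whether they passed the thresholds used for all genes, are therefore given as a description with no p, and support nothing.

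RNA of mouse skin epithelium was sequenced from 4 groups of 2 libraries each. At E16.5, K14-H2BGFP+ cells, whose nuclei glow because histone H2B fused to GFP is made under the Krt14 promoter of basal epithelial cells, were sorted by FACS from backskin of controls and of MOF cKO embryos (MOFfl/fl/K14Cre), which lose the histone H4 lysine acetyltransferase MOF, encoded by Kat8. At P0.5, the whole epidermis, freed from dermis with Dispase and lysed by floating on TRIzol, came from controls and from Kansl1 cKO pups (Kansl1fl/fl/K14Cre), whose conditional allele loses exon 3 of Kansl1, a subunit of the MOF-containing NSL complex. Krt14-Cre restricts deletion to the epithelium, all mice had a mixed C57Bl/6J and CD-1 background, both sexes were used, and the labels name the genotype of the controls only as control. Nothing in the labels states how many animals gave each library, so the p-values below measure the spread between these libraries only.

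Between 9108709 and 27561688 reads per library fell on named genes. The epithelial label held, with all 8 keratinocyte markers (Krt5, Krt14, Krt1 and others) detected in every library and summed levels of at least 33761 CPM, a count scaled to a common library size. Kat8, counted over the whole gene so that a deleted part is not resolved, was at 14.4 and 14.7 CPM in E16.5 control and 12.4 and 13.9 CPM in MOF cKO, a log2 difference of -0.14 (adjusted p = 0.554, edgeR's quasi-likelihood test). Kansl1 was at 40.7 and 48.2 CPM in P0.5 control and 31.4 and 30.6 CPM in Kansl1 cKO (log2 difference -0.52, adjusted p = 0.242, edgeR's quasi-likelihood test). In 1 library, other tissue stood out. The 7 skeletal muscle markers summed to 337 CPM in P0.5 control replicate 1 and to between 6.21 and 10.3 CPM in the other 3 P0.5 libraries, and the log2 differences at P0.5 below are also given without it.

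The start regions of 8 of the 10 genes, all but Acaa2 and Acat1, were taken from the RefSeq table of promoter windows (GRCm38.p6, 250 bases before to 50 bases after the start). The windows of Acads, Acadsb and Scp2, the genes with the lowest log2 fold changes in MOF cKO, are shown with that of Acadl, which was higher. Each runs 5′ to 3′ on the gene's own strand, and capitals mark CpG dinucleotides. The windows lie at chr5:115119297-115119596 (Acads, minus strand), chr7:131410351-131410650 (Acadsb, plus), chr4:108118498-108118797 (Scp2, minus) and chr1:66863260-66863559 (Acadl, minus). Gene positions below come from GENCODE, where Scp2 runs from 108043839 to 108144998 on the minus strand and so starts at 108144998. The Scp2 window thus lies inside that span, away from the GENCODE start.
Acads: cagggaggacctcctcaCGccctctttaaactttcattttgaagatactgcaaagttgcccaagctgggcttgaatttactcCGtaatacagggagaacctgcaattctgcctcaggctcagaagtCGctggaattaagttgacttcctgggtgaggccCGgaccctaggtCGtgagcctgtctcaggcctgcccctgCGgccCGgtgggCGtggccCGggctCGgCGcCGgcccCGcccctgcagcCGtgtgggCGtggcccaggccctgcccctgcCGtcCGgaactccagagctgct
Acadsb: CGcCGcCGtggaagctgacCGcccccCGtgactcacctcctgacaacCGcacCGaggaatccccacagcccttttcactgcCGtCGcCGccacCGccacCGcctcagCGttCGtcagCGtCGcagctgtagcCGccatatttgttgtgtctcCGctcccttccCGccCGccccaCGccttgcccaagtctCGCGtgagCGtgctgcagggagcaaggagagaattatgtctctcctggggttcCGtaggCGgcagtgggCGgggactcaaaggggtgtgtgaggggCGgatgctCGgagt
Scp2: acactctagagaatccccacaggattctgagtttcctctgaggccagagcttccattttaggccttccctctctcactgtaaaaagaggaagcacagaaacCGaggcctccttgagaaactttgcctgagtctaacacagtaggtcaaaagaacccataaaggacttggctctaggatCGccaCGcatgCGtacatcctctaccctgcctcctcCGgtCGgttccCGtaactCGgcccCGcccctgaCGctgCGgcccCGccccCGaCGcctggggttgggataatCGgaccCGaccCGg
Acadl: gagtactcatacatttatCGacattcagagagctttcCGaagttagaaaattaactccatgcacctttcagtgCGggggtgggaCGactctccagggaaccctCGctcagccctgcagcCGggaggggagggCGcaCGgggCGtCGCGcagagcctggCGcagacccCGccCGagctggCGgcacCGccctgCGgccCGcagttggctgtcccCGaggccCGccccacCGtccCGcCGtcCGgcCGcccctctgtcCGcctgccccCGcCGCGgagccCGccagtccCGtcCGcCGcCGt
CpG dinucleotides numbered 17 in the Acads window, 29 in Acadsb, 13 in Acad11, 17 in Scp2 and 34 in Acadl, against a median of 7 over all 32851 windows of the table. The Acadl window, from the gene that was higher in MOF cKO, was the richest in CpG of the 8, and the windows of the genes that were lower ranged from 9 (Acadvl) to 29. Motifs were searched on both strands of each window. No match was found in the 8 windows for the X-box of RFX factors (in 0.298% of all windows), its first part GTTGCCA (4.38%), the ERR site TCAAGGTCA (0.423%), the ETS site CCGGAAGT (3.89%), or the sites of PPAR (0.0396%), NRF1 (4.6%) and YY1 (0.633%). The CCAAT box, in 37.4% of all windows, matched in Acad11, 88 bases before the start on the opposite strand, and in Hadh, 239 bases before it. A match or its absence describes these letters only.

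Loss of MOF was first compared with control in the sorted E16.5 cells. Of the 10 genes, 6 were downregulated past both thresholds of the study's methods, a fold change above 1.5 at an adjusted p not above 0.01: Acads, Acadsb, Scp2, Acat1, Acadvl and Acad11. One, Acadl, was higher past both, and Acadm, Acaa2 and Hadh did not pass. Across the 13956 genes tested the same thresholds called 9.59% lower and 10% higher. No gene of the 10 overlapped between the groups, 7 lying below control in both MOF cKO libraries and 3 above, as 37.7% and 34.9% of all genes tested did, and since the choice of the 10 genes may rest on this contrast nothing is read from the difference. The median log2 fold change of the 10 genes was -0.70 against -0.02 over all genes tested, and 0.05 over the 5610 genes whose mean level lay in the range of the 10 (23.9 to 175 CPM). Scaling by library size alone, which moved the median of all genes to -0.32 and their calls from 1338 lower and 1395 higher to 2743 and 769, added Acadm to the genes called lower and left Acadl higher. In bulk RNA, fewer cells that express a gene and less RNA per cell cannot be told apart.

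**Figure D1:**
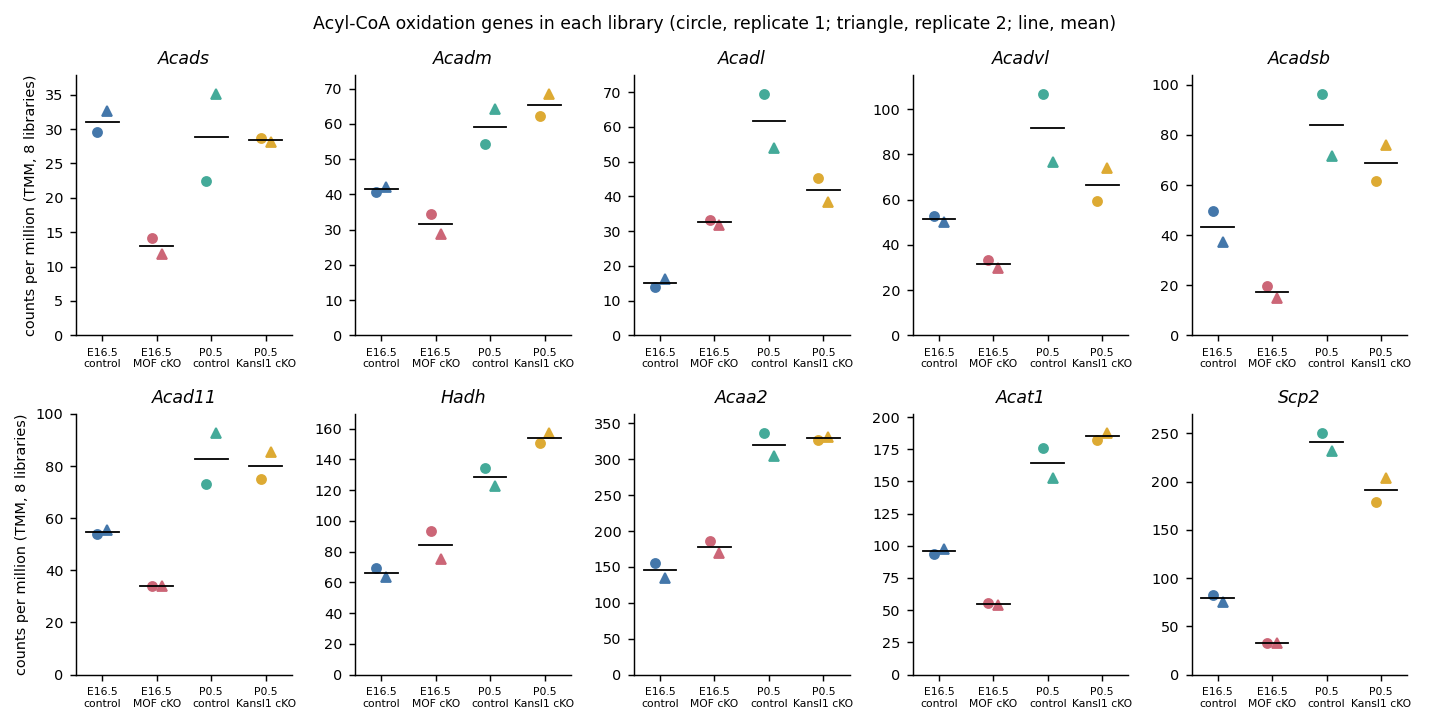
Each panel plots 1 gene in all 8 libraries, as CPM scaled with TMM factors over the 8 libraries, with circles for replicate 1, triangles for replicate 2 and a line at the group mean. Acads, Acadsb, Acad11, Acadvl, Acat1, Acadm and Scp2 sat lower in both MOF cKO libraries than in both E16.5 controls, Acadl, Acaa2 and Hadh sat higher, and all but Acads were higher in both P0.5 controls than in both E16.5 controls.

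The dehydrogenases did not all move the same way. Acads, which starts the oxidation of short chains, was at 32.2 and 35.2 CPM in the control libraries and at 15.3 and 12.8 CPM in MOF cKO, where CPM are scaled within the E16.5 comparison. Both MOF cKO libraries lay far below both controls, by a log2 difference of -1.26 (standard error 0.16). The gene lies on chromosome 5 of mm10, minus strand, from 115110299 to 115119346.

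Acadm, the medium-chain enzyme (chromosome 3, 153922357 to 153944632, minus strand), moved less. It was at 44.3 and 45.6 CPM in control and at 37.4 and 31.2 CPM in MOF cKO, a log2 difference of -0.39 (standard error 0.14). The groups did not overlap, but the fold of 1.31 was under the threshold of 1.5.

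Acadl, the long-chain enzyme (chromosome 1, 66830839 to 66863277, minus strand), went the other way. Its level was 15.2 and 17.7 CPM in control and 36.0 and 34.5 CPM in MOF cKO. Both MOF cKO libraries were about as far above the controls as those of Acads were below, with a log2 difference of 1.10 (standard error 0.15) and a fold of 2.15.

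Acadvl, which takes the very long chains at the inner mitochondrial membrane (chromosome 11, 70010183 to 70015411, minus strand), was at 57.4 and 54.0 CPM in control and 36.0 and 32.2 CPM in MOF cKO. Its log2 difference was -0.71 (standard error 0.13), with no overlap between the groups. The call was lost without E16.5 control replicate 1 and without MOF cKO replicate 2, while the log2 difference stayed between -0.79 and -0.63. The last 2119 bases of its annotated span overlap Dvl2 on the other strand, and no source used here states whether strand was used in counting. Dvl2 itself was at 67.0 and 81.4 CPM in control and 80.3 and 94.2 CPM in MOF cKO.

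Acadsb had the most negative log2 difference of the 10 genes. Acadsb encodes the short and branched-chain enzyme, which acts on the acyl-CoA made from isoleucine. It was at 54.0 and 40.2 CPM in control and 21.1 and 16.2 CPM in MOF cKO, a log2 difference of -1.34 (standard error 0.20) and a fold of 2.52. The controls differed from each other more, as a ratio, than those of any other of the 10 genes did, yet the lower control stood well above the higher MOF cKO library. Acad11, a less studied member of the dehydrogenase family (chromosome 9, 104063377 to 104127725, plus strand), was almost without spread, at 58.7 and 59.8 CPM in control and at 36.9 CPM in both MOF cKO libraries. The log2 difference was -0.68 (standard error 0.11), a fold of 1.61 close to the threshold, and the call was lost when either MOF cKO library was left out, with log2 differences between -0.70 and -0.67.

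**Figure D2:**
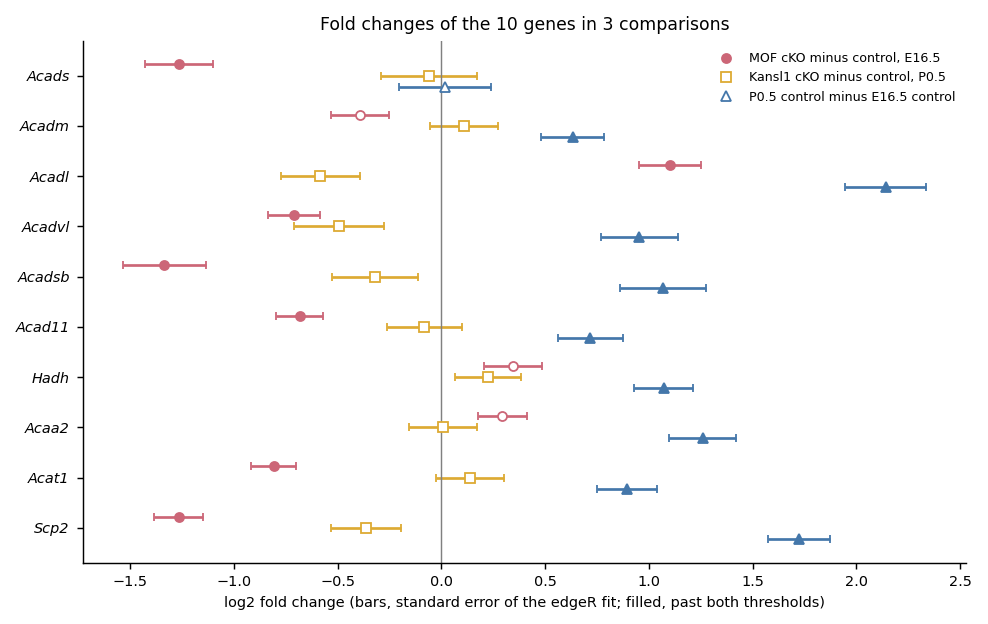
Points give the fitted log2 fold change of each gene in MOF cKO at E16.5 (circles), Kansl1 cKO at P0.5 (squares) and P0.5 control relative to E16.5 control (triangles), with bars of 1 standard error and filled points where both thresholds were passed. The MOF cKO points range from -1.34 (Acadsb) to 1.10 (Acadl), no Kansl1 cKO point is filled, and 9 of the 10 control points are filled on the higher side.

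Further along the pathway, the hydroxyacyl-CoA dehydrogenase and the main thiolase did not fall. Hadh (chromosome 3, 131233419 to 131272101, minus strand) was at 75.2 and 68.8 CPM in control and 101 and 81.4 CPM in MOF cKO. Both MOF cKO libraries were above both controls, though they differed from each other by more than the gap to control, and the log2 difference was 0.34 (standard error 0.14). Acaa2, the mitochondrial 3-ketoacyl-CoA thiolase, was at 170.0 and 145 CPM in control and 202 and 184 CPM in MOF cKO. Its log2 difference of 0.29 (standard error 0.12) was not past the thresholds and became -0.01 when libraries were scaled by their size alone.

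Acat1 and Scp2, thiolases with other substrates, were both lower. Acat1, which cleaves acetoacetyl-CoA in ketone body use and acts in isoleucine breakdown (chromosome 9, 53580522 to 53610382, minus strand), was at 102 and 105 CPM in control and 60.0 and 58.6 CPM in MOF cKO. The libraries of each group nearly coincided, and the log2 difference was -0.81 (standard error 0.11). Scp2, which works on branched chains and sterol side chains in peroxisomes (chromosome 4, 108043839 to 108144998, minus strand), was at 90.3 and 81.3 CPM in control and 35.9 and 35.4 CPM in MOF cKO. It fell 2.41-fold, with a log2 difference of -1.27 (standard error 0.12). Its annotated gene span shares 52607 bases with that of Podn on the same strand. Podn was at 0.620 and 0.758 CPM in control and 3.41 and 5.72 CPM in MOF cKO, small beside Scp2 itself.

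**Figure D3:**
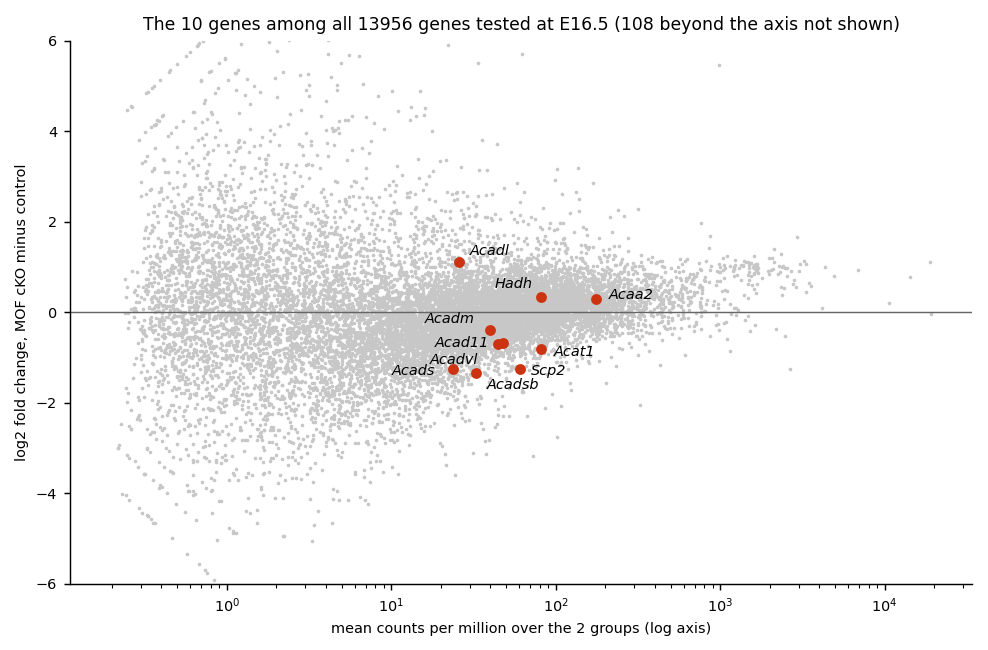
The log2 fold change of MOF cKO relative to control is plotted against mean CPM (log axis) for all 13956 genes tested, with the 10 genes in red; 108 genes beyond a log2 fold change of 6 in either direction are not shown. By log2 fold change over all genes tested, Acads, Acadsb and Scp2 lie at percentiles 10.2, 9.35 and 10.2 and Acadl at 89.3. The other 6 lie between 18.0 (Acat1) and 69.5 (Hadh).

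Acadsb starts close to another gene on the opposite strand, which allows the levels of both members of the pair to be compared. Acadsb (chromosome 7, 131410601 to 131448944, plus strand) starts 80 bases from Ikzf5, a zinc finger transcription factor gene, in the GENCODE annotation and 123 bases from it in the RefSeq table. Ikzf5 was at 35.7 and 31.3 CPM in control and at 36.8 and 34.5 CPM in MOF cKO, and its libraries overlapped (log2 difference 0.09, adjusted p = 0.632, edgeR's quasi-likelihood test). The partner was not lower along with the oxidation gene, and whether their differences differ was not tested. The annotated span of Acadsb also lies inside that of Fgfr2 on the other strand, which was far more abundant (611 and 502 CPM in control against 462 and 413 CPM in MOF cKO).

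**Figure D4:**
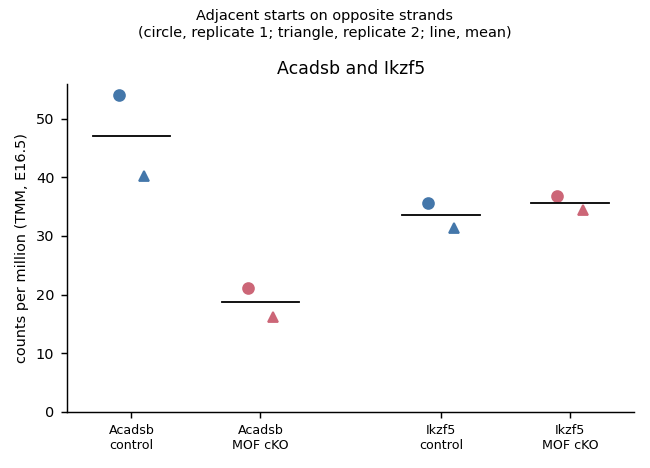
Levels at E16.5 (CPM, TMM) are shown for Acadsb with Ikzf5, in control (blue) and MOF cKO (red), with circles for replicate 1, triangles for replicate 2 and a line at the mean. Acadsb is lower in both MOF cKO libraries than in both controls, while Ikzf5 overlaps between the groups.

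These opposite movements changed the order of the genes when levels were set per length. As RPKM, the CPM divided by the summed exon length in kilobases and scaled over all 8 libraries, Acaa2 was the most abundant of the 10 in every group, at 95.8 ± 10.2 (SD, n = 2) in E16.5 control and 118 ± 7.78 in MOF cKO. In E16.5 control it was followed by Acat1 (25.5 ± 0.652 RPKM), Scp2 (22.7 ± 1.56), Acadvl (19.1 ± 0.737), Acads (13.7 ± 0.941), Hadh (13.3 ± 0.763), Acadm (10.6 ± 0.281), Acadl (7.55 ± 0.836), Acadsb (6.04 ± 1.22) and Acad11 (5.58 ± 0.0996). Only the neighbours Acads and Hadh, and Acadsb and Acad11, overlapped in their libraries. In MOF cKO, Acadl rose from rank 8 to rank 3 at 16.2 ± 0.522 RPKM and could not be separated from Hadh at 17.0 ± 2.64 RPKM, which stood at rank 2. Scp2 moved from rank 3 to rank 6 at 9.46 ± 0.107 RPKM, and Acads from rank 5 to rank 8 at 5.70 ± 0.714 RPKM.

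The rest of the pathway was read from lists of 83 other genes, also drawn up with earlier results known, of which 78 passed the filter on low counts. In MOF cKO 26 of these (33.3%) were called lower and 6 (7.69%) higher, where 9.59% and 10% of all genes tested were. Their median log2 fold change was -0.47. Since results were known when the lists were drawn up, nothing is read from these shares. By list, 13 of 22 genes of branched-chain amino acid breakdown, the route that Acadsb and Acat1 belong to, fell and 0 rose, with a median of -0.93. Pcca, a subunit of propionyl-CoA carboxylase, went from 12.1 and 13.1 CPM to 1.20 and 0.805 CPM (log2 difference -3.65, adjusted p = 0.000539, edgeR's quasi-likelihood test). Ppm1k, the phosphatase that activates the branched-chain ketoacid dehydrogenase, and Dbt and Bckdhb, subunits of that complex, fell as well, with log2 differences of -2.17, -1.91 and -1.74 (adjusted p of 0.00262, 0.000768 and 0.00217, edgeR's quasi-likelihood test). Among the related dehydrogenases, Ivd for leucine and Acad8 for valine fell, with log2 differences of -1.45 and -1.06.

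**Figure D5:**
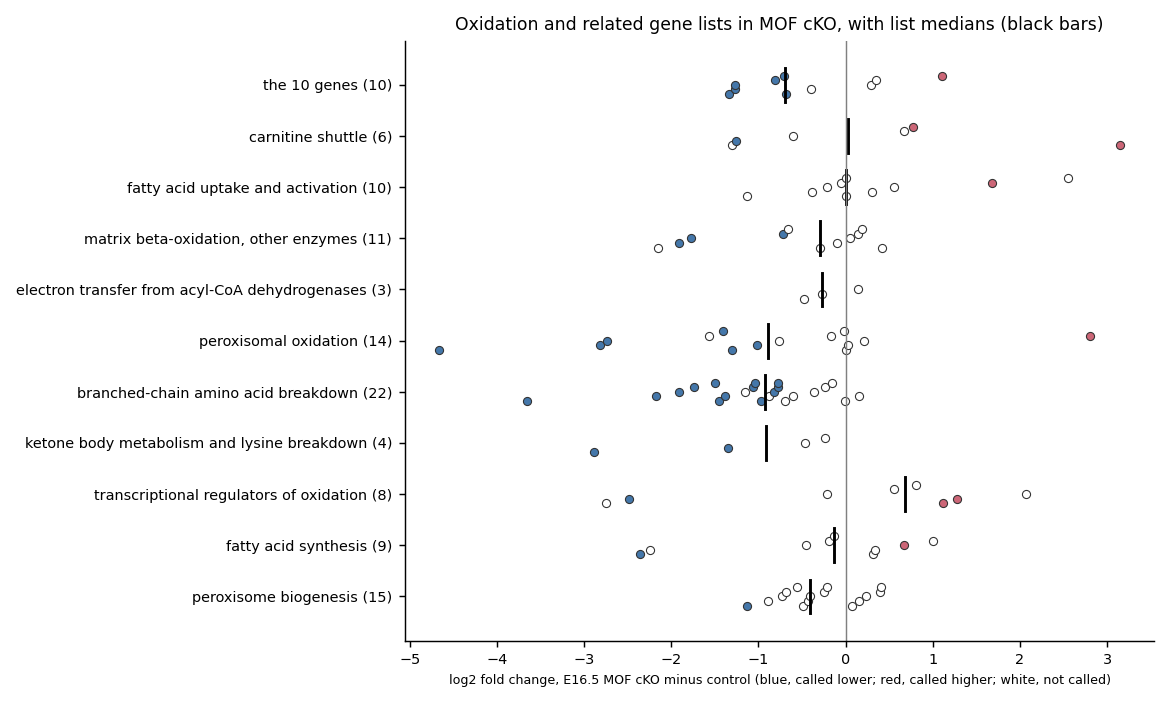
Each circle is 1 gene, placed by its log2 fold change in MOF cKO relative to control at E16.5 and coloured blue where called lower, red where called higher and white where not called, with a black bar at each list's median and the number of genes tested in parentheses. Branched-chain amino acid breakdown and peroxisomal oxidation have medians of -0.93 and -0.89, beside -0.70 for the 10 genes, and the carnitine shuttle is centred at 0.03.

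In peroxisomal oxidation, the route of Scp2, 6 of 14 genes (42.9%) were called lower and 1 (7.14%) higher. Of all genes tested, 9.59% and 10% were. Ehhadh, the peroxisomal bifunctional enzyme, was at 9.20 and 7.51 CPM in control and 0.402 and 0.254 CPM in MOF cKO (log2 difference -4.67, adjusted p = 0.0006, edgeR's quasi-likelihood test), and Acox3, Hacl1 and Hsd17b4 fell too (log2 differences -2.81, -2.73 and -1.30). Acaa1b rose by 2.81 on the log2 scale, while its near-identical copy Acaa1a did not pass at -0.77 (adjusted p = 0.0195, edgeR's quasi-likelihood test); how the counting divided reads between these copies is not known, so both are uncertain.

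In the mitochondrial matrix, 3 of 11 further enzymes (27.3%) were called lower and 0 higher, where 9.59% and 10% of all genes tested were. The 3 were Decr1, which handles unsaturated chains (log2 difference -1.91), Acad10 (-1.78) and the hydratase Echs1 (-0.72). Decr1 and Acad10 lost their call without E16.5 control replicate 1 (-1.75 and -1.67), and Acad10 also without MOF cKO replicate 1 (-1.545). The trifunctional protein that takes long chains through the later steps was not called, with log2 differences of -0.09 for Hadha and 0.05 for Hadhb. None of the 3 electron transfer genes was called either (Etfa 0.14, Etfb -0.48, Etfdh -0.28), with a smallest adjusted p of 0.0183, and 1 had an unadjusted p under 0.05. Scaling by library size alone called Etfb lower, at -0.78 (adjusted p = 0.00272, edgeR's quasi-likelihood test). The carnitine shuttle brings long chains into mitochondria. Of 6 genes tested from its list, 3 lay below control in both MOF cKO libraries and 3 above, as 37.7% and 34.9% of all genes tested did. Of the 6, 1 was called lower (16.7%) and 2 higher (33.3%). The part of each gene in that import was not measured. The carrier Slc25a20 fell by 1.25 on the log2 scale (adjusted p = 0.00293, edgeR's quasi-likelihood test), Cpt1a and Cpt1c rose by 0.77 and 3.15 on that scale, and Cpt2 was not called at -0.60 (adjusted p = 0.0797). Cpt1a lost its call without E16.5 control replicate 2 and without MOF cKO replicate 1 (0.69 in both cases), and with library size alone, where it was at 0.47.

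Gcdh, the dehydrogenase of lysine breakdown, fell by 1.35 on the log2 scale. Of 8 regulators, Sirt3, the mitochondrial deacetylase, fell by 2.48 on the log2 scale, and the nuclear receptors Ppard and Esrra rose by 1.28 and 1.12 on it. Ppara, the fatty acid receptor, was at 3.20 and 2.45 CPM in control and 0 and 0.805 CPM in MOF cKO and was not called (adjusted p = 0.0838, edgeR's quasi-likelihood test). It was called lower with every gene of at least 1 count kept (adjusted p = 0.00237), with the replicate block (adjusted p = 0.00253) and without MOF cKO replicate 2, which leaves only the library at 0, by the same edgeR quasi-likelihood test. Ppargc1a, the coactivator, stayed under 1.2 CPM in all 4 libraries. For uptake, Fabp5, the epidermal fatty acid binding protein, rose by 1.68 on the log2 scale. In fatty acid synthesis, Scd1 fell by 2.36 and Fasn rose by 0.67. The call for Fasn was lost with upper-quartile factors (0.60), library size alone (0.36), in 1 fit over 8 libraries and without any single library but E16.5 control replicate 2 (0.51 to 0.72).

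Markers of other cells and of differentiation differed in the same libraries. Of 8 keratinocyte markers, 2 were called higher and 0 lower. The 2 were the suprabasal keratins Krt1 (3901 and 4324 CPM against 1423 and 1161 CPM in control) and Krt10 (3854 and 4296 CPM against 2069 and 1677 CPM). Trp63 was lower in both MOF cKO libraries (446 and 385 CPM against 651 and 585 CPM) without a call. Krt5 overlapped (15116 and 19924 CPM against 18047 and 17984 CPM). The summed level of 11 macrophage markers was 19.3 and 42.7 CPM in E16.5 control and 101 and 127 CPM in MOF cKO. Of the 11, 8 were called higher, and 1 (Tyrobp) was at 0 in 1 control. Most of the control sums was Cd68 (16.6 and 38.5 CPM), which overlapped MOF cKO (21.2 and 47.8 CPM). Every other macrophage marker was at most 1.24 CPM (Fcer1g) in the controls and at least 2.03 CPM (Mrc1) in MOF cKO. Fibroblast markers, 7 in all, summed to 842 and 1435 CPM in control and to 1422 and 1982 CPM in MOF cKO, with 0 of 7 called. Of the 7, 6 lay above control in both MOF cKO libraries, while Dcn went from 455 and 471 CPM to 379 and 372 CPM. Of 5 endothelial markers 1 was called higher, and their sum was 9.96 and 20.6 CPM in MOF cKO against control sums of 5.66 and 6.68 CPM. Adipocyte and muscle markers, from cells rich in these enzymes, summed to no more than 6.95 and 18.0 CPM in any E16.5 library, and the adipocyte genes Plin1, Cidec and Lep were at 0 in all 4 libraries, and Adipoq was at 0 in 1 of them. The part of these cells in the levels of the 10 genes was not tested.

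The loss of Kansl1 was compared with control in P0.5 epidermis. None of the 10 genes passed the thresholds, and neither did any other gene (0 called of 13031, 0% in each direction by edgeR's quasi-likelihood test, while 15.7% had an unadjusted p under 0.05 and DESeq2 called 0.506% lower and 0.269% higher, none of the 10 among them). The median log2 fold change of the 10 genes was -0.07, against 0.01 over all genes tested. Single genes ranged from -0.58 (Acadl) to 0.22 (Hadh), with standard errors between 0.16 and 0.23. In simulated data for this comparison, 18.6% of genes changed 2-fold were called, so a gene not called may still differ.

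Acadl was at 65.1 and 50.04 CPM in P0.5 control and at 41.3 and 35.3 CPM in Kansl1 cKO. Both Kansl1 cKO libraries were below both controls, opposite to its direction in MOF cKO. The log2 difference was -0.58, and -0.39 without P0.5 control replicate 1, the library with muscle transcripts. Whether the MOF and Kansl1 effects differ was not tested, since stage and isolation differ with them.

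Acadvl and Scp2 were the other 2 genes lower in both Kansl1 cKO libraries. Acadvl was at 100.03 and 71.4 CPM in control and at 54.1 and 67.7 CPM in Kansl1 cKO. Without P0.5 control replicate 1, which held its highest level, the log2 difference went from -0.49 to -0.23. Scp2 was at 234 and 216 CPM in control and at 163 and 187 CPM in Kansl1 cKO, and its log2 difference of -0.36 had a standard error of 0.17 and was -0.30 without P0.5 control replicate 1.

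Hadh and Acat1 were higher in both. Hadh was at 126 and 114 CPM in control and 137 and 144 CPM in Kansl1 cKO, a log2 difference of 0.22. Acat1 was at 164 and 142 CPM in control and 166 and 172 CPM in Kansl1 cKO, which is 0.14 on the log2 scale. Without P0.5 control replicate 1 these differences were 0.30 and 0.25. In all, 3 of the 10 genes lay below control without overlap and 2 above, where 22.7% and 26% of all genes tested did.

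The remaining 5 overlapped between the groups. Acads, the gene most alike in depth of fall to Scp2 in MOF cKO, was at 21.1 and 32.6 CPM in control and at 26.1 and 25.8 CPM in Kansl1 cKO, so the 2 controls enclosed both Kansl1 cKO libraries, and its log2 difference of -0.06 became -0.33 without the first control. Acadsb was at 90.3 and 66.5 CPM in control and 56.2 and 69.4 CPM in Kansl1 cKO. Its log2 difference of -0.32 became -0.08 without P0.5 control replicate 1. Acad11, Acadm and Acaa2 had log2 differences of -0.08, 0.11 and 0.01, and the sign for Acaa2 turned with the scaling (-0.01 with DESeq2's size factors, -0.04 with upper-quartile factors). Without P0.5 control replicate 1 these were -0.235, 0.001 and 0.09, and the median of the 10 was -0.16.

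Of the 78 other pathway genes tested at P0.5, 0 were called and 17 had an unadjusted p under 0.05 in edgeR's quasi-likelihood test. Over all genes tested, 15.7% had such a p. Slc25a20 was at 40.4 and 34.3 CPM in control and 22.0 and 23.0 CPM in Kansl1 cKO (log2 difference -0.73, adjusted p = 0.198, edgeR's quasi-likelihood test). Dbt had a log2 difference of -0.90 and Etfb of -0.64 (adjusted p of 0.197 and 0.207, edgeR's quasi-likelihood test), each lower in both Kansl1 cKO libraries. Without P0.5 control replicate 1, Slc25a20, Dbt and Etfb had log2 differences of -0.61, -1.055 and -0.50 and were not called. Melanocyte markers, 7 in all, summed to 506 and 572 CPM in P0.5 control and to 1130 and 1249 CPM in Kansl1 cKO, and fibroblast markers to 1866 and 1175 CPM and to 1018 and 807 CPM. Of 7 fibroblast markers, 6 lay below control in both Kansl1 cKO libraries. Dcn was at 317 and 427 CPM in control and 661 and 428 CPM in Kansl1 cKO. P0.5 control replicate 1, with muscle markers at 337 CPM, held the highest P0.5 levels of Acadl, Acadvl, Acadsb, Scp2 and Acaa2. It also held the lowest of Acads (21.1 CPM) and Acadm (50.8 CPM), and neither extreme for Acat1 and Hadh. For Acad11 this depended on the scaling. P0.5 control replicate 1 was at 68.4 CPM and Kansl1 cKO replicate 1 at 68.2 CPM within this comparison. Scaled over 8 libraries they were at 73.0 and 75.0 CPM, the first being the lowest at P0.5. The part of these cells in the Kansl1 values was not tested.

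Control epidermis at P0.5 was set against control epithelium at E16.5 to show the range of these genes in the absence of either deletion. Of the 10, 9 were higher at P0.5 past both thresholds and 0 lower, where 22.2% and 17.6% of 13859 genes tested were, 9 lay above without overlap, as 40% of all genes did, and their median log2 difference was 1.01 against -0.01 over all genes. Stage, isolation (sorted cells or whole epidermis) and, per the study methods, the sequencing instrument changed together, and their parts cannot be told apart. Scaling by library size alone, under which the median of all genes became -0.47, moved the calls of all genes from 2436 lower and 3070 higher to 4340 and 2089, and left 4 of the 9 calls and a median of 0.54 for the 10. Acadm and Acad11 lost their call without E16.5 control replicate 1, without E16.5 control replicate 2 and without P0.5 control replicate 2, and Acat1 also lost it in the first of these cases.

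Acadl differed most. On the scale of this comparison it was at 14.4 and 16.7 CPM at E16.5 and at 78.2 and 59.4 CPM at P0.5, a log2 difference of 2.14, and of 1.94 without P0.5 control replicate 1. Scp2 followed, at 85.4 and 77.1 CPM at E16.5 and 281 and 256 CPM at P0.5 (log2 difference 1.73, and 1.66 without that control). So Acadl was higher both in MOF cKO and at P0.5, while Scp2 was lower in the first and higher in the second, and the shared E16.5 controls enter both differences.

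Acads alone was not called, at 30.4 and 33.4 CPM at E16.5 and 25.3 and 38.8 CPM at P0.5, where the later libraries enclosed the earlier ones. Its log2 difference of 0.02, and of 0.29 without P0.5 control replicate 1, had no stable sign. The other 7 lay between 0.63 (Acadm) and 1.26 (Acaa2), with Hadh at 1.07, Acadsb at 1.07, Acadvl at 0.95, Acat1 at 0.90 and Acad11 at 0.72. Without P0.5 control replicate 1 the 9 genes were still called, these 7 lay between 0.69 (Acadvl) and 1.18 (Acaa2), and the median was 0.85. Among the 10 genes, the RPKM order at P0.5 began with Acaa2 (211 ± 15.1), Scp2 (69.3 ± 3.73) and Acat1 (43.7 ± 4.27), and the next 3, Acadvl, Acadl and Hadh, overlapped from neighbour to neighbour.

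Of the other pathway genes, 32 of 80 were called higher and 9 lower (40% and 11.2%), and 25 and 10 without P0.5 control replicate 1. Their median log2 difference was 0.39 against -0.01 over all genes. Scaling by library size alone gave 19 higher and 18 lower, with a median of -0.07 against -0.47 over all genes. The balance of calls changed with the scaling, while the median lay above that of all genes under both scalings. Cpt1a and Cpt2 were higher by 2.08 and 1.72 on the log2 scale, and Hadha and Hadhb by 1.49 and 1.93, which became 1.94, 1.70, 1.28 and 1.715 without that library. Branched-chain amino acid breakdown had 5 of 22 genes called higher (22.7%) and 4 lower (18.2%), shares near the 22.2% and 17.6% of all genes. The 4 were Pcca (-2.06), Bckdhb (-1.52), Mmab (-1.10) and Bcat2 (-1.07), at -1.517, -1.518, -0.97 and -0.76 without P0.5 control replicate 1, and Mmab lost its call without E16.5 control replicate 1 (-1.01). Muscle markers were at 2.70 and 3.71 CPM in E16.5 control and 337 and 10.3 CPM at P0.5, and melanocyte markers at 18.1 and 47.4 CPM and 506 and 572 CPM. Macrophage markers were at 19.3 and 42.7 CPM and 198 and 237 CPM, with 10 of 11 called higher. Cd68, most of the E16.5 sums at 16.6 and 38.5 CPM, was at 8.93 and 9.39 CPM at P0.5. Of 8 keratinocyte markers, 2 were called higher and 3 lower. Krt1 was at 1423 and 1161 CPM at E16.5 and 37793 and 19454 CPM at P0.5, and Krt10 at 2069 and 1677 CPM and 31930 and 18498 CPM. In the other direction, Krt5 went from 18047 and 17984 CPM to 8967 and 9952 CPM, and Krt14 from 9221 and 8964 CPM to 5625 and 6529 CPM. Trp63 went from 651 and 585 CPM to 333 and 334 CPM, and Itgb4 from 548 and 533 CPM to 269 and 272 CPM. For all these markers, their part in these differences was not tested.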

How the data were processed

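Polyadenylated and strand-marked cDNA libraries (NEBNext Ultra Directional) of 8 samples, 2 per group, were sequenced as paired 150 nt reads. The deposited values are whole-number counts of reads per gene without normalization, made by the authors with HTSeq-count from alignments to mm10; the study's methods name HISAT2 as the aligner, while the submitters' processing notes name TopHat2, and the strand setting is not given in the sources used here. Rows that name no gene held 21.1% to 26.0% of reads and were left out.

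The main test used edgeR 4.0.16 (R 4.3.3): filterByExpr, TMM factors and the quasi-likelihood test with Benjamini-Hochberg adjustment, fitted across all genes within each of 3 comparisons (E16.5 MOF cKO against control, P0.5 Kansl1 cKO against control, and P0.5 control against E16.5 control). A call needed an adjusted p of at most 0.01 and a fold change above 1.5, the study's cutoffs, which its authors applied with DESeq2. One count stood for 0.0309 to 0.138 CPM, and all 10 genes had at least 184 counts in every library; counting error is not the limit, but 2 libraries per group are. The fit was tested on simulated data with known changes. In the MOF comparison it called 37.8% of 98 genes changed 2-fold and 72.4% of 98 changed 4-fold. In the Kansl1 comparison these shares were 18.6% and 85.6% of 97 genes each. False calls numbered 4 and 6. Positions come from GENCODE M21, which held 92.9% of the symbols.

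The 10 genes and all gene lists were chosen with earlier results of these data known, and no list is independent evidence. Other genes named are the targeted genes, enzymes and regulators picked by role, up to 4 called genes of largest absolute change per list, and genes overlapping or starting within 1000 bases of the 10. Acaa1a, Acad8, Bcat2, Hsd17b4, Ivd, Mmab and Slc22a5 fall outside this rule and were added after their values were seen. A few genes that this rule names are not reported here. Replicates differed beyond counting noise (chi-square per degree of freedom 23.5 to 44.1). The alternatives were DESeq2 1.42.0, edgeR's likelihood ratio test and glmTreat, other scalings and filters, the replicate block, an adjusted p of 0.05, 1 fit over 8 libraries and leaving out each library.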

Additional observations from a re-analysis of the deposited data

How the results depend on the processing

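With 2 libraries per group, the spread rests on few values shared across genes, and leaving 1 out assumes that the lone library varies like the other group. In MOF cKO the 10 genes gave 6 calls lower and 1 higher with DESeq2, the likelihood ratio test, RLE and upper-quartile factors, both other filters on low counts and an adjusted p of 0.05, and 5 and 1 in 1 fit over 8 libraries. The test against a fold of 1.5 left 2 lower (Acads, Scp2) and 0 higher, and 13 of the other pathway genes lower. Leaving out 1 library left 4 to 6 lower and 1 higher. Scaling by library size alone moved the median of the 10 to -1.001 and of the other pathway genes to -0.779. It also turned Acaa2 to -0.012, Hadhb to -0.257, Etfa to -0.167, Ikzf5 to -0.216 and Dvl2 to -0.069. Hadhb turned to -0.017 with upper-quartile factors and ranged from -0.011 to 0.109 with 1 library left out.

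In Kansl1 cKO, 0 of the 10 were called under any alternative run. Acaa2 turned to -0.01 with DESeq2 and with RLE factors, to -0.044 with upper-quartile factors, -0.041 with library size alone and -0.03 with a 1 CPM filter. With 1 library left out it ranged from -0.1 to 0.088, Acads from -0.331 to 0.268 and Acad11 from -0.235 to 0.065.

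Between the controls, the test against a fold of 1.5 left 4 of the 10 genes higher, with 4 other pathway genes lower and 19 higher. Library size alone also left 4, with a median of 0.538, and gave 18 and 19 other pathway genes with a median of -0.07. An adjusted p of 0.05 gave 14 other pathway genes lower. Acads turned to -0.091 with upper-quartile factors, -0.424 with library size alone, -0.003 with every gene of at least 1 count and -0.098 in 1 fit over 8 libraries, and ranged from -0.333 to 0.289 with 1 library left out. The median of the 10 then ranged from 0.852 to 1.168. The cause of these changes was not tested.

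The study names 2 pairs of samples per comparison and littermates as controls, but no source used here says that equal replicate numbers mark a pair, so the replicate block is given as an alternative. Differences between replicates correlated at 0.206 in the MOF, -0.202 in the Kansl1 and 0.0434 in the control comparison. With the replicate block, MOF cKO gave 6 and 1 calls among the 10 genes, 32 and 8 among the other pathway genes and 2263 lower and 1903 higher over all genes, where Kansl1 cKO gave 0 and the control comparison 9 higher, with Acads at -0.015. A crossed pairing of the Kansl1 libraries, chosen after seeing the data, called 1 gene lower and 0 higher, none of the 10.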
